A study of Mus musculus with 4 samples.

Results

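The apolipoprotein genes Apoa1, Apoa2, Apoa4, Apoa5, Apob, Apoc1, Apoc2, Apoc3, Apoe and Apom were followed in mouse liver after ethylbenzene. All 10 were found by their gene symbols on the array, through 16 probe sets, among 18194 genes that a probe set named singly. Livers came from C57BL/6J mice that were 2 months old. Mice were dosed in 2 rounds, each time with either the industrial solvent ethylbenzene or phosphate-buffered saline (PBS). Round 1, called the first exposure, consisted of 2 injections into the peritoneum 24 h apart. The second exposure followed 7 days afterwards, and livers were taken 5 h after it. Every ethylbenzene dose was 7 mmol per kg. P+P mice (3) had PBS both times, E+P mice (3) had ethylbenzene and then PBS, P+E mice (5) had PBS and then ethylbenzene, and E+E mice (5) had ethylbenzene both times. Liver RNA of each group was pooled and put on 1 Affymetrix array, so there are no replicates, no difference could be tested, and the number of mice per pool followed the second exposure.

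Apolipoproteins are the protein part of the particles that carry lipids in blood. Apob is the structural protein of the triglyceride-rich particles that liver secretes, and Apoa1 and Apoa2 are the main proteins of high-density lipoprotein (HDL). The smaller, exchangeable apolipoproteins move between particles and govern what happens to them: Apoc2 activates lipoprotein lipase, Apoc3 restrains lipid clearance, Apoa5 favours it, and Apoe is the ligand by which remnants are taken up by receptors. Hepatocytes are the chief source of most of them. Because the RNA came from whole liver, fewer cells of a type and less RNA per cell cannot be told apart.

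Of the family, Apoa4 was the only gene that stood higher by 2-fold or more on both arrays taken after a second ethylbenzene exposure, by 2.88-fold and 2.10-fold on one probe set and by 5.09-fold and 4.93-fold on the other. Apom was lower on both, by 1.34-fold and 1.36-fold in deposited signal. Apob was 2.21-fold higher on P+E than on P+P but 1.06-fold on E+E against E+P, and its P+P signal was far below those of the other arrays. The other 7 genes, like Apom, differed by less than 1.5-fold in each of the 4 comparisons. Among all genes past the filter explained below, 14.6% and 15.7% were higher by that much after the second exposure. In each pair of values, unless another order is named, the first is P+E against P+P (mice given PBS first) and the second is E+E against E+P (mice given ethylbenzene first).

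**Figure D1:**
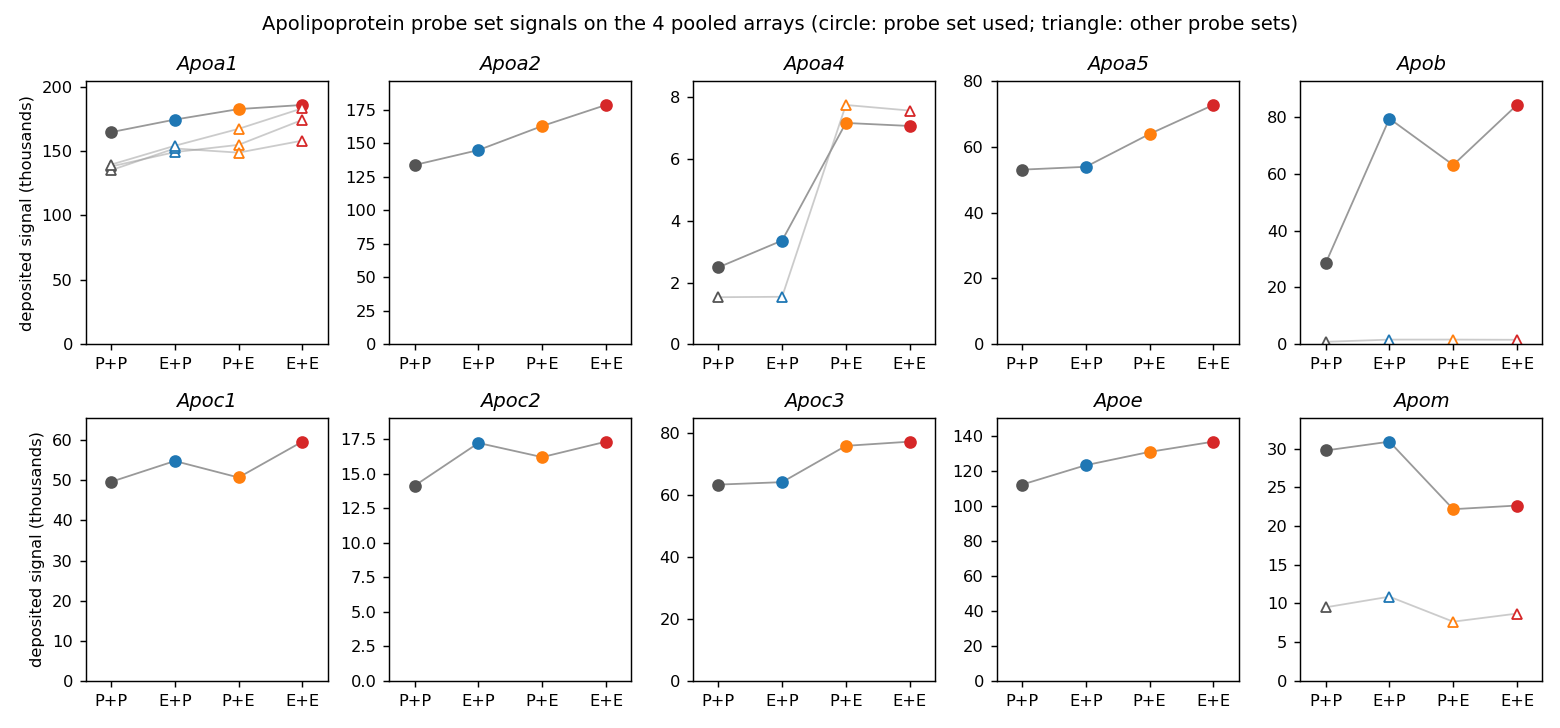
Deposited signal, in arbitrary units on an axis from 0 and scaled as labelled, of each apolipoprotein probe set (vertical axis) on the array of each group (horizontal axis), 1 array per group and hence no error bars. Circles are the probe set that stands for the gene, triangles are its other probe sets, and lines join values of the same probe set without implying a sequence in time. Apoa4 is high on P+E and E+E, Apom is low on the same arrays, and Apob is low on P+P alone.

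A signal is the authors' linear brightness value for a probe set. A log2 ratio below is the difference of log2(signal + 43.2) after the 4 arrays had been quantile-normalized, a scaling that gives every array the same set of values in rank order. That scaling compresses the most abundant transcripts. The Apoa1 probe set had the highest signal of all on P+P and on E+P and ranked 2 on P+E and 5 on E+E. Folds are therefore ratios of deposited signals, and log2 ratios are given in both scalings where they part. The brightest signal on an array was 164592 (P+P), 174360 (E+P), 193496 (P+E) or 217526 (E+E). In deposited signals the 100 genes with the highest mean had median log2 ratios of 0.10 and 0.07. Sizes are read against 2-fold (a log2 ratio of 1) and 1.5-fold. Of the 11528 genes past a filter on low signals, the shares higher and lower by 2-fold or more were 7.22% and 7.10% for P+E against P+P. They were 7.55% and 7.17% for E+E set against E+P. All 10 apolipoprotein genes passed that filter, and 9 were among the 500 genes of highest mean signal.

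The array of the P+P pool differed from the rest in some of its controls, but little in those of Gapdh. The geometric mean of the 18S ribosomal RNA controls was 1872 on P+P and between 122 and 182 on the other arrays, and that of the Actb controls was 8928 on P+P and between 22081 and 30540 elsewhere. For Pcx, the control signal at the 3' end over that at the 5' end was 23.51 on P+P and between 6.15 and 12.03 on the others. For Gapdh that quotient was 1.06 on P+P and between 0.91 and 0.97 on the others. The geometric mean of the Gapdh controls was 54119 on P+P and between 56155 and 60216 elsewhere. Hepatocyte markers were present as the labelled tissue requires: 8 of 8 passed the filter, and Alb, the plasma albumin gene, had signals between 145040 and 196579.

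Apoa4 encodes an exchangeable apolipoprotein of intestine and liver whose liver transcript is known to go up in fasting and in fatty liver. Its probe set of higher mean signal read 2491 (P+P) and 3362 (E+P) after PBS and 7175 (P+E) and 7076 (E+E) after ethylbenzene. Its other probe set, whose ID carries no mark of cross-hybridisation, read 1524 (P+P) and 1538 (E+P) after PBS and 7758 (P+E) and 7576 (E+E) after ethylbenzene. On both probe sets the arrays after a second ethylbenzene exposure were high and those after PBS were low. The share of all genes that order the arrays in this way was not counted. The log2 ratios were 1.55 and 1.10 on the first probe set and 2.33 and 2.31 on the second. Both ratios were thus past 2-fold on either probe set, as they were for 3.19% of all genes in that direction. On the first probe set the ratio in mice given ethylbenzene first was smaller by 0.45 (difference -0.45), and on the second the difference was -0.02.

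In the RefSeq annotation Apoa4 lies on chromosome 9 between Apoc3 and Apoa5, and Apoa1 is the gene beside Apoc3. The neighbours did not share the size of its difference. Apoa1 read 164592 (P+P) and 174360 (E+P) after PBS and 182514 (P+E) and 185730 (E+E) after ethylbenzene, that is 1.11-fold and 1.07-fold higher. The direction depended on the scaling: all 4 Apoa1 probe sets were above 0 in both ratios as deposited (0.06 to 0.26), and none was above 0 after quantile normalization (-0.20 to 0.00). Apoc3, the inhibitor of lipid clearance, read 63344 (P+P) and 64132 (E+P) after PBS and 75848 (P+E) and 77200 (E+E) after ethylbenzene. Its fold was 1.20 in each comparison, with log2 ratios of 0.26 and 0.27 as deposited but 0.08 and 0.03 after quantile normalization. Apoa5, whose protein promotes triglyceride hydrolysis, read 53076 (P+P) and 53938 (E+P) after PBS and 63907 (P+E) and 72745 (E+E) after ethylbenzene. Its folds of 1.20 and 1.35 are log2 ratios of 0.27 and 0.43 as deposited, and the ratios were 0.18 and 0.25 after quantile normalization. On the deposited scale, and on the probe set that stands for each gene, the P+E and E+E signals of Apoa1, Apoc3 and Apoa5 lay above those of P+P and E+P, but by far less than for Apoa4. How many of all genes had that order of arrays was not counted.

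Promoter sequences are shown for Apoa4, for its neighbours Apoa1 and Apoa5, which differed far less, and for Apom, which was lower. They are the 250 bases before the RefSeq start site, in GRCm38.p6, 5′ to 3′ on the gene's strand: chr9:46240594-46240843 (plus strand) for Apoa4, chr9:46228380-46228629 (plus) for Apoa1, chr9:46268358-46268607 (plus) for Apoa5 and chr17:35131802-35132051 (minus) for Apom. Capitals mark the TATA box letters TATAAA and 3 spellings of the hexamer that nuclear receptors bind, on either strand. The spellings were AGGTCA for the consensus, then its variant AGTTCA, and last the variant GGGTCA.
Apoa4: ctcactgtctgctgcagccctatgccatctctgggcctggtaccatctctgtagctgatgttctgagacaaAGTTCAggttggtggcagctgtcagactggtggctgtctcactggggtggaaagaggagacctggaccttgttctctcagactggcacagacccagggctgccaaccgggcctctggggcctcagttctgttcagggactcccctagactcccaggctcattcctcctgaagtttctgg
Apoa1: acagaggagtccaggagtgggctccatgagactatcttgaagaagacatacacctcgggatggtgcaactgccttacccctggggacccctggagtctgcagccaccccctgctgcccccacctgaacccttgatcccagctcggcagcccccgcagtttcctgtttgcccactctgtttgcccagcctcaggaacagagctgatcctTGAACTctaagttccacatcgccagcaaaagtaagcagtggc
Apoa5: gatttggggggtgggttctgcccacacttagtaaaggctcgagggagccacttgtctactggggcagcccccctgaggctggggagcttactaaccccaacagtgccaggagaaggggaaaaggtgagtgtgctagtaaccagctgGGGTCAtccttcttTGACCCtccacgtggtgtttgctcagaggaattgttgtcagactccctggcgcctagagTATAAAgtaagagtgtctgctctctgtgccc
Apom: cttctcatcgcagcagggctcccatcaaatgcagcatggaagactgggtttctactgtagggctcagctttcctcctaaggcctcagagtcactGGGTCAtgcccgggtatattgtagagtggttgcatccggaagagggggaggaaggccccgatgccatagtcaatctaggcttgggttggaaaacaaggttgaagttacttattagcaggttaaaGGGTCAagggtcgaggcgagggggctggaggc

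The RefSeq promoter table held 8 of the 10 genes. The spelling AGTTCA was found in Apoa4, at 179 to 174 bases before the start, and on the opposite strand in Apoa1, at 42 to 37 bases. It occurs in 11.8% of all promoters of that length. GGGTCA was found in Apom at 156 to 151 and at 32 to 27 bases before the start, in Apoa5 on both strands, and in Apoe, against 11.6% of all promoters. TATAAA was found in Apoa5 at 31 to 26 bases and also in Apoa2, Apob and Apoe, against 12.4%. AGGTCA was found in Apoa2 and Apoc2 (14.0% of all promoters), and TGACG, the core of the site for CREB and related factors, in the same 2 genes (17.8%). AAAGGTCA, a longer form that contains AGGTCA, was found in Apoa2 (1.34%). None of the 8 held CAAAGTCC, written for HNF4 (1.20%), TTGCGCAA, written for C/EBP (0.164%), or TGACGTCA, the full CREB site that contains TGACG (1.55%). Other spellings of the HNF4 and C/EBP sites were not searched, so the windows may hold them. These matches describe letters in a window, and AGTTCA and GGGTCA were added to the search after the sequences had been seen.

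Apob, the scaffold of very-low-density and low-density lipoproteins, had the widest range over the 4 arrays among the probe sets that stand for the 10 genes (1.57 on the log2 scale). The other Apoa4 probe set ranged more widely, over 2.33. Its brighter probe set read 28499 (P+P) and 79436 (E+P) after PBS and 63097 (P+E) and 84226 (E+E) after ethylbenzene. The dimmer one read 847 (P+P) and 1617 (E+P) after PBS and 1629 (P+E) and 1554 (E+E) after ethylbenzene. Both were low on P+P and alike on the other 3 arrays, within 1.33-fold of each other for E+E against P+E and within 1.06-fold for E+E against E+P. The log2 ratios were 1.16 and -0.07 on the brighter probe set (0.08 for the second as deposited) and 0.95 and -0.02 on the dimmer. With E+P taken in place of P+P, P+E was lower and not higher, at -0.41, so the higher value was seen against P+P only. The E+P mice had also been given ethylbenzene first, so array and first exposure cannot be told apart here.

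At least 2-fold below each other array was the P+P signal of 6 of the 500 genes of highest signal (1.20%), and of 1.53% of all genes past the filter. The 6 were Apob, Actb (18501 on P+P, and 41727 to 58046 elsewhere) and Mt1, Mt2, Lcn2 and Cyp2b10. The last 4, which encode metallothioneins, an iron-sequestering protein and a cytochrome P450, also differed by at least 3.50 on the log2 scale in both second-exposure ratios, whereas Actb was at 1.28 and 0.38. For Actb the quotient of control signals at the 3' and 5' ends was 4.55 on P+P and between 3.48 and 3.84 on the other arrays, beside the Pcx and Gapdh values above. The part of these array differences in the Apob values was not tested.

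Apoa2, the other main HDL protein, read 133728 (P+P) and 144857 (E+P) after PBS and 162812 (P+E) and 178538 (E+E) after ethylbenzene. It was 1.22-fold and 1.23-fold higher in deposited signal, or 0.08 and 0.06 on the log2 scale after quantile normalization and 0.28 and 0.30 before. Apoe, the receptor ligand, read 112299, 123408, 131025 and 136881 in the same order of arrays. Its folds were 1.17 and 1.11, but its log2 ratios went from 0.22 and 0.15 as deposited to 0.00 and -0.15 after quantile normalization, because its rank was 27 on both P+P and P+E and went from 22 to 30 between E+P and E+E. Thus Apoa2 and Apoe were both higher on P+E and E+E as deposited, whereas by rank Apoa2 was slightly higher and Apoe level or slightly lower.

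Apoc1 and Apoc2 lie with Apoe on chromosome 7. Apoc1, which interferes with receptor uptake of particles, read 49631 (P+P) and 54831 (E+P) after PBS and 50721 (P+E) and 59654 (E+E) after ethylbenzene. Its folds of 1.02 and 1.09 are log2 ratios of 0.03 and 0.12 as deposited, but the ratios were -0.05 and -0.01 after quantile normalization, and the P+E signal lay below that of E+P. Apoc2, the lipase activator, read 14150 (P+P) and 17246 (E+P) after PBS and 16220 (P+E) and 17341 (E+E) after ethylbenzene. Its log2 ratios were 0.26 and 0.02, with P+P lowest and the other 3 arrays close together.

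Apom encodes a lipocalin on HDL that carries a signalling sphingolipid. Its brighter probe set read 29763 (P+P) and 30900 (E+P) after PBS and 22178 (P+E) and 22651 (E+E) after ethylbenzene, and the dimmer read 9505, 10881, 7650 and 8697. On each probe set both arrays after a second ethylbenzene exposure lay below both arrays after PBS, an order whose share among all genes was not counted. The log2 ratios were -0.36 and -0.44 on the brighter probe set (-0.42 and -0.45 as deposited) and -0.28 and -0.30 on the dimmer. None of these reached 1.5-fold, the size at which 17.4% and 17.1% of all genes were lower. Apom was the lowest of the 10 genes in both ratios under both scalings.

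**Figure D2:**
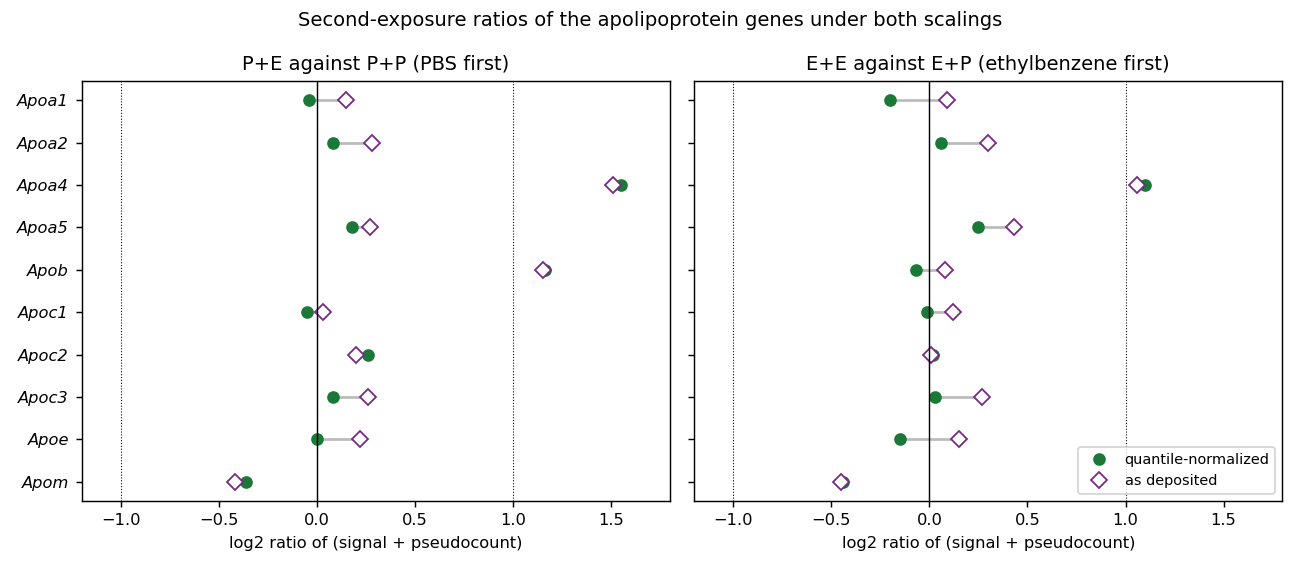
Log2 ratio of each apolipoprotein gene (horizontal axis; dotted lines at 2-fold), left for P+E over P+P, right for E+E over E+P, with green circles for quantile-normalized and open purple diamonds for deposited signals, 1 array per group. Apoa4 is past 2-fold in both panels, Apob in the left panel only, and the signs of Apoa1, Apoc1 and Apoe depend on the scaling.

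For the family as a whole the median log2 ratio was 0.08 and 0.01, beside -0.07 and -0.05 over all genes past the filter. On the deposited scale it was 0.24 and 0.14, beside -0.05 and -0.04 over all genes and 0.10 and 0.07 over the 100 of highest signal. On that scale 9 of the 10 genes were above 0 in each ratio, beside 46.5% and 46.9% of all genes. Of the 100 genes of highest signal, which include 7 of the 10, 68 and 60 were above 0. After quantile normalization 6 were above 0 and 3 below in the first ratio, with Apoe at 0.00, and 5 were above and 5 below in the second. Of all genes past the filter, 44.6% and 45.8% were above 0 in that scaling. At least 2-fold higher were 2 of 10 in the first ratio (Apoa4 and Apob) and 1 of 10 in the second (Apoa4), and none was at least 2-fold lower. Except for Apob in the second ratio, which was within 1.06-fold, the scalings disagreed in sign only for Apoa1, Apoc1 and Apoe.

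The lasting trace of the first exposure was read where PBS came second, as E+P against P+P, and where ethylbenzene came second, as E+E set against P+E. Pairs of values here and in the next paragraph keep that order. Apob was higher by 2.79-fold on E+P and, in the latter comparison, by 1.33-fold on E+E, with log2 ratios of 1.57 and 0.33. On its dimmer probe set the values were 0.90 and -0.07. Apob was the only 1 of the 10 genes at least 2-fold apart in the first of these ratios, where 2.95% of all genes were higher and 3.19% lower by that much, and 8.13% and 9.16% by 1.5-fold or more. In the second ratio none of the 10 reached 1.5-fold, beside 11.3% of all genes higher and 10.8% lower by that size, and 4.38% and 4.39% by 2-fold.

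The remaining genes were close to 0. Apoa4 was at 0.43 and -0.01 on its brighter probe set and at 0.01 and -0.01 on the other, so that on the latter probe set E+P lay beside P+P and E+E beside P+E. Apoc2 was at 0.29 and 0.05, and Apom at 0.06 and -0.02. Apoc1 was at 0.09 and 0.13, and Apoa1, Apoa2, Apoa5, Apoc3 and Apoe lay between -0.15 and 0.09 in both ratios. On the deposited scale all 10 were above 0 in the first ratio and 9 in the second, with medians of 0.13 and 0.08. Of all genes past the filter, 48.7% and 50.4% were above 0 on that scale. The 100 genes of highest signal had medians of 0.09 and 0.07 on that scale, with 73 and 75 of them above 0. After quantile normalization the family medians were 0.07 and 0.00.

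How the second response varied with the first treatment was described by subtracting the P+E ratio from the E+E ratio, a value that carries the error of all 4 arrays. It was below 0 for 8 of the 10 genes after quantile normalization, with a median of -0.12, and for 6 of 10 as deposited, with a median of -0.04. Of all genes past the filter, 50.3% were above 0 after quantile normalization and 50.6% as deposited. Of the 100 genes of highest signal, 38 and 50 were above 0. Apob was at -1.23 (-0.97 on its dimmer probe set) and was the only gene of the family past 1.5-fold, a size at which 15.4% of all genes were lower and 17.6% higher. That value contains the low P+P signal. Apoc2 was at -0.24 and the other 8 lay between -0.45 and 0.07.

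**Figure D3:**
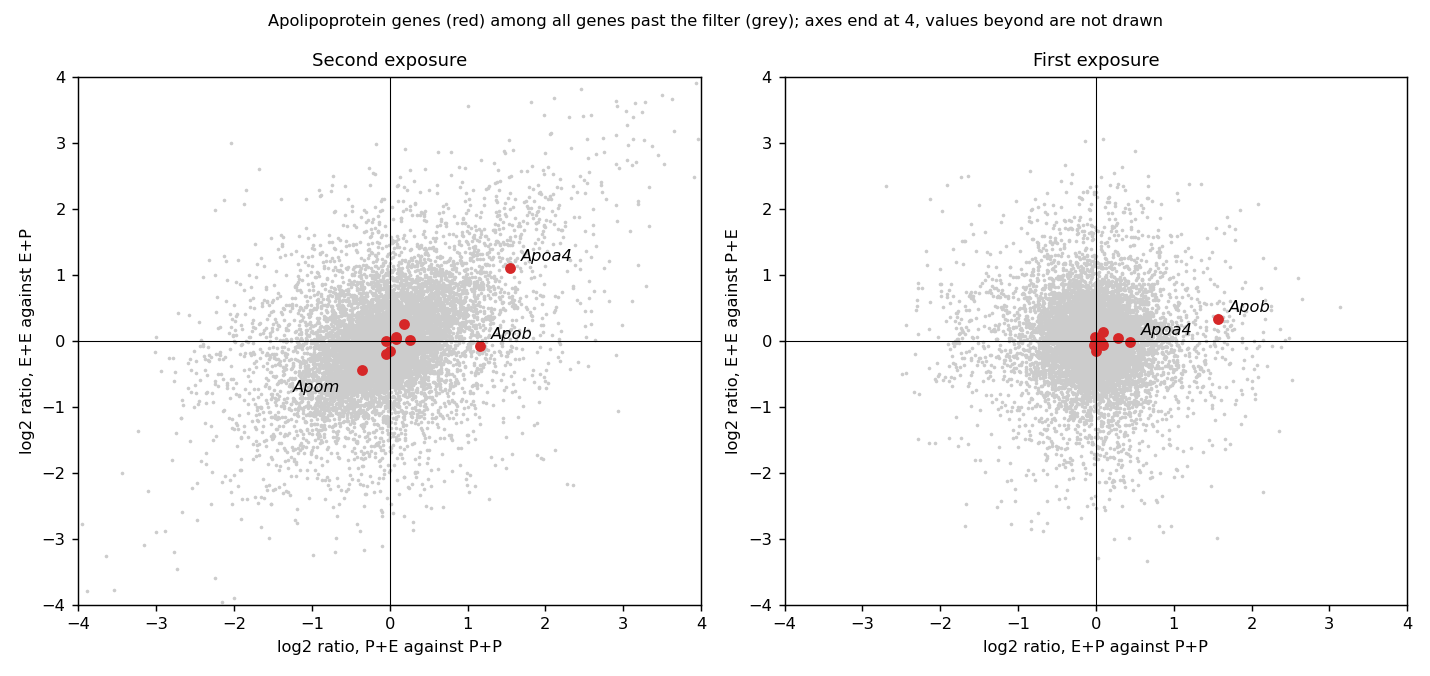
Log2 ratios of the apolipoprotein genes (red) and of all genes past the filter (grey) for the second exposure (left, P+E against P+P on the horizontal and E+E against E+P on the vertical axis) and for the first (right, E+P against P+P on the horizontal and E+E against P+E on the vertical axis), each pair sharing no array. Apoa4 lies up and to the right in the left panel, Apob lies to the right in both panels and near 0 vertically, and the other genes lie near the origin.

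Genes that act with the apolipoproteins were read from lists, and pairs of values return to the order of the second exposure. Of 15 genes of particle assembly and Apob mRNA editing, none reached 2-fold in one direction in both ratios, and their medians were 0.08 and 0.17. Mttp, which loads lipid onto Apob, was at 0.08 and 0.20. Apobec1, the enzyme that edits Apob mRNA so that a shorter protein is made, was at 0.45 and 1.32. Its signals were 628 (P+P) and 437 (E+P) after PBS and 858 (P+E) and 1148 (E+E) after ethylbenzene. Tm6sf2, which takes part in loading lipid onto particles, was at 1.09 and 0.24, and Sort1, a sorting receptor for Apob, at -0.82 and -0.49. Mia2 was at 0.00 and -1.66. The array cannot show whether the Apob mRNA was edited.

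Among 16 genes of lipid transfer, lipases and HDL, 3 were at least 2-fold higher and 2 lower in both ratios, where 3.19% and 2.03% of all genes were, with medians of 0.08 and 0.05. The higher ones were Saa1 (5.75 and 6.12) and Saa2 (7.22 and 7.47), acute phase proteins that ride on HDL, and Abca1 (1.25 and 1.33), which exports cholesterol and phospholipid to Apoa1. The probe sets read for Saa1 and Saa2 carry marks of cross-hybridisation, so these 2 may not be separate readings. Abca1 read 5534 (P+P) and 5714 (E+P) after PBS and 12720 (P+E) and 14301 (E+E) after ethylbenzene, and all 3 of its probe sets were above 0 in both ratios. The lower ones were Lipg, a lipase that acts on HDL (-2.67 and -2.59, the latter -2.21 with its low E+E signal set to the filter level of 132.9, and with 1 of its 3 probe sets above 0 in each ratio), and Angptl8, an inhibitor of lipoprotein lipase (-4.23 and -2.83). Lcat, which esterifies cholesterol on HDL, was at -0.10 and -0.22, and Pltp, the phospholipid transfer protein, at -0.02 and -0.09. Apoa1 itself was within 1.11-fold, while Abca1 and both Saa genes were more than 2-fold higher.

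Of 11 receptor and uptake genes, none reached 2-fold in one direction in both ratios, and the medians were 0.26 and 0.01. Sdc1, a proteoglycan that binds remnants, was at 0.88 and 0.77 with all 4 probe sets above 0, and Cd36, a fatty acid and lipoprotein scavenger receptor, at 1.11 and 0.83. Lrp1, a remnant receptor, was at 0.26 and 0.46, and Scarb1, the HDL receptor, at 0.09 and -0.09. Mylip, which directs receptors to degradation, was at 0.55 and -0.47. Lrp8 was at 1.45 and -0.50, but at 0.42 and -0.43 once signals under the filter level were raised to it. On a probe set whose ID does not end in _a_at, _s_at or _x_at, Lrp8 was at -0.88 in the first ratio.

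Transcription factors that act on apolipoprotein genes had medians below 0. Of 23 past the filter, 5 reached 2-fold downward in both ratios and 1 did so upward, where 2.03% and 3.19% of all genes did, and the medians were -0.45 and -0.90. The lower ones were Cebpa (-2.03 and -1.18), Foxa1 (-2.05 and -2.11), Foxa3 (-2.27 and -1.50), which maintain hepatocyte gene expression, Ppara (-1.14 and -1.54), a fatty acid sensor, and Srebf1 (-1.15 and -1.58), which drives lipid synthesis. The higher one was Cebpb (1.11 and 1.30), a factor of the acute phase response, and with the arrays set to a common 75th percentile 0 regulators were that much higher in both ratios. On probe sets whose IDs do not end in _a_at, _s_at or _x_at, 3 of 19 regulators were at least 2-fold lower in both (Cebpa, Foxa1 and Ppara). Foxa3 and Srebf1 could not be read there, because their IDs end in _a_at. That ending stands for transcripts of the same gene and is not a mark of cross-hybridisation. Hnf4a, the receptor on which many liver apolipoprotein genes depend, was at -0.10 and 0.20, with signals of 28406 (P+P) and 22184 (E+P) after PBS and 25258 (P+E) and 25398 (E+E) after ethylbenzene. Of the 4 Hnf4a probe sets, 2 were above 0 in the first ratio and 1 in the second. Creb3l3, a liver factor known to act on Apoa4, was at 0.13 and -0.01. Nr1h4, the bile acid receptor, was at -0.90 and -0.92, and Nr1h3, the oxysterol receptor, at -0.45 and -0.60.

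**Figure D4:**
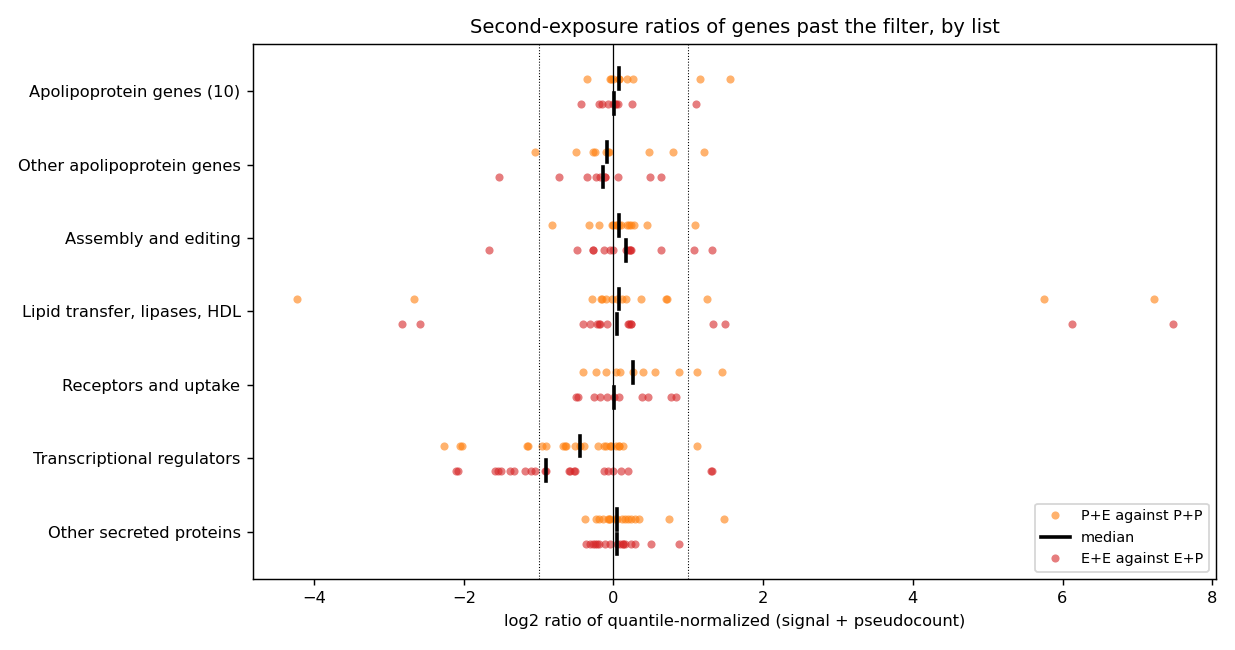
Log2 ratios after quantile normalization (horizontal axis; dotted lines at 2-fold) of the genes past the filter in each list, for P+E against P+P (orange) and E+E against E+P (red), with black bars at the medians and 1 array per group. The apolipoprotein genes lie near 0 save Apoa4 and, in orange only, Apob, while the medians of the transcriptional regulators are -0.45 and -0.90.

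Of 22 other genes that carry an apolipoprotein name or act as one, 14 had a probe set of their own and 10 passed the filter, with medians of -0.09 and -0.15. Apol7a, of a family of intracellular lipid-binding proteins, was the only one to reach 2-fold in one direction in both ratios, at -1.05 and -1.53. Its signals were 4310 (P+P) and 5449 (E+P) after PBS and 1970 (P+E) and 1824 (E+E) after ethylbenzene. Apol8, under the filter with signals between 20.7 and 133.1, was at 1.15 and 1.21, but at 0.00 in both once signals under the filter level were raised to it. Probe sets of the closely related Apol genes can share signal. Apon, a plasma apolipoprotein, was higher by 0.79 and 0.49, with signals of 13664, 15431, 22867 and 21950. Apof, a regulator of lipid transfer, was at 0.48 and 0.06, and Apold1, a gene of endothelial cells, at 1.21 and 0.64 (1.05 and 0.49 at the filter level). Apobr, a receptor for Apob-containing particles, was at -0.25 and -0.73. Apoc4, which lies with Apoe, was at -0.06 and -0.11, and Apoh and Clu, other abundant plasma proteins, were at -0.10 and -0.18 and at -0.08 and -0.11, although as deposited they were between 0.03 and 0.10.

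The genes whose pattern over the 4 arrays was nearest to that of Apob, out of 10850 named genes past the filter and by Euclidean distance of centred log2 values, were Akap14 (distance 0.09), Cngb3 (0.14), Dmbx1 (0.14), Coro6 (0.15) and Padi3 (0.15). All 5 were dim on P+P, with signals between 33.0 and 59.3, under the filter level of 132.9 and near the 43.2 added to every signal. They stayed at or under 316 on the other arrays, so their distances depend on that added value. Closer than 0.5 to Apob lay 65 genes. For Apoa4, added after the data were seen, the nearest genes were Btg1 (0.10), Tmprss2 (0.11), Coq8a (0.12), Caskin2 (0.13) and Rep15 (0.15), and 205 genes lay closer than 0.5. Tmprss2 and Rep15 also read under the filter level on P+P, at 116.5 and 35.2. Btg1, an antiproliferative gene, read 1955 (P+P) and 2811 (E+P) after PBS and 5827 (P+E) and 5329 (E+E) after ethylbenzene, and Coq8a, of coenzyme Q synthesis, 2751, 3810, 8696 and 7723.

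Markers of other cells were read beside these values. Apoa4 and Apob are also made by enterocytes. Of 7 measured enterocyte markers 2 passed the filter, Fabp2 and Cdx2, and Vil1 read between 7.4 and 20.6 on the 4 arrays. The summed signal of the list was 7416 (P+P) and 7617 (E+P) after PBS and 6261 (P+E) and 7010 (E+E) after ethylbenzene. Nearly all of it was Fabp2, a fatty acid binding protein gene, which read 6880 and 7234 after PBS and 5577 and 6670 after ethylbenzene and was at -0.26 and -0.08. Each other marker of the list read at most 275.7 on any array. Apoe is also made by macrophages. The summed signal of 12 Kupffer cell and macrophage markers was 21511, 31467, 17723 and 20823, with medians of -0.11 and -0.47. Pancreatic acinar markers were higher together with Apoa4: 6 of 7 reached 2-fold upward in both, as 3.19% of all genes did, with summed signals of 2965, 2429, 7374 and 7457. Of 4 neutrophil markers past the filter, 2 were at least 2-fold higher in both (again beside 3.19%): S100a8 (3.29 and 3.62) and S100a9 (3.62 and 4.83). The others did not share this, with Ngp at -0.89 and 1.33 and Csf3r at 2.08 and 0.08. The 5 measured neutrophil markers had summed signals of 668, 694, 4275 and 6304. Most of the P+E and E+E sums came from S100a8 (1480 and 2312) and S100a9 (1991 and 3143). The part of these cells in the Apoa4 values was not tested.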

How the data were processed

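The authors deposited intensities, linear signals of 45101 probe sets on each of 4 arrays, made from labelled cRNA of pooled liver RNA per the labels' protocols. Which software summarised the probes is not given in the sources used here. On every array the 2% trimmed mean of deposited signals was 500.0, so the authors had scaled them. The medians of log2 signals lay 0.24 apart, and the arrays were therefore quantile-normalized (Python 3.11.15, numpy 2.4.6, pandas 2.3.3) and expressed as log2(signal + 43.2), the 25th percentile of all signals.

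Probe sets were named by the platform annotation, with symbols updated by Entrez identifier (34754 of 34958 with 1 symbol). Several symbols were listed for 932. The array names no genome build, so RefSeq (GRCm38.p6) was used for names, neighbours and promoters. Each gene stands as its probe set of highest mean signal, and genes with a mean signal under the median of all probe sets (132.9) were filtered out. With 1 array per group no p-value was computed, and precision is limited by their number. The steps were tested on simulated data.

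The apolipoprotein genes and the gene lists were chosen with earlier results of these data known. Named are all 10 genes, list genes that reached 2-fold in one direction in both second-exposure ratios, filled up to 4 by size, the 5 genes nearest in pattern to the member of widest range (over the probe sets that stand for the genes), and, beyond that rule, well-known members of each list and genes chosen after their values were seen. Other scalings, pseudocounts, probe set choices and filters were tried as alternatives.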

Additional observations from a re-analysis of the deposited data

Results flagged for a closer look

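Among genes named beside the apolipoproteins, 3 immune cell markers had ratios of at least 1.5-fold in opposite directions, and the differences were not tested. Ngp, a neutrophil granule gene, was at -0.89 on P+E against P+P and 1.33 on E+E against E+P, and at -1.11 on E+P against P+P and 1.12 on E+E against P+E. Csf3r, a neutrophil growth factor receptor gene, was at 0.96 and -1.04 in the latter 2 comparisons, and Fcgr1, an Fc receptor gene of monocytes, at -0.89 and 0.67. None of the apolipoprotein genes did so.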

How the results depend on the processing

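Of 435 values of single apolipoprotein genes under 9 alternatives, 361 lay within 0.1 of the value reported, 74 moved by more, and none of those at least 1.5-fold turned. Apoa4 ranged from 1.45 to 2.33 and from 1.03 to 2.31 in the second-exposure ratios, highest on its probe set without cross-hybridisation marks. A probe set was called unmarked where its ID did not end in _a_at, _s_at or _x_at. The family's median on P+E against P+P, 0.08, became 0.24 as deposited, 0.18 at a common 75th percentile, 0.22 centred on the 500 genes of highest signal and 0.18 over the 7 genes with unmarked probe sets. On E+E against E+P it went from 0.01 to 0.14 as deposited and 0.12 with that centring, and the median difference of ratios from -0.12 to -0.01 at the 75th percentile. With E+P in place of P+P, added after the data were seen, the first median was -0.04, 1 gene in place of 2 was at least 1.5-fold higher (Apoa4, at 1.12), and Apob turned to -0.41. Of list genes, Lrp8 turned to -0.88 without marked probe sets and Fcgr1 to -0.45 on E+E against P+E when probe sets were averaged. The shares of all genes higher and lower by 2-fold for E+P against P+P were 0.670% and 0.568% with a filter at the 75th percentile and 6.72% and 7.38% without one. For E+E against P+E they were 0.787% and 0.874%, and 8.37% and 8.66%. The shares lower after the second exposure were 4.17% and 4.56% with the stricter filter. With a pseudocount of 100 the first-exposure shares were 1.60% and 1.85%, then 2.61% and 2.75%, and 2.04% were lower for E+P with probe sets averaged. Regulators at least 2-fold lower in both ratios numbered 3 of 19 in place of 5 of 23 on unmarked probe sets, which fewer genes have, and those higher 0 in place of 1 at a common 75th percentile. Without a filter 1 of 14 other apolipoprotein genes, Apol8, was at least 2-fold higher in both. No paired analysis was possible because each group was 1 array, and no array could be left out of a group.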

Other observations

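Other abundant proteins that hepatocytes secrete behaved much as the most abundant apolipoproteins did. Of 17 genes listed as such and past the filter, none reached 2-fold in one direction in both second-exposure ratios (1 did as deposited). Their medians were 0.05 and 0.05, or 0.25 and 0.13 as deposited. Itih3, of the inter-alpha-trypsin inhibitors, was at 1.48 and 0.87. Ttpa, the vitamin E transfer protein, was at 0.74 and 0.50, and was on the list although its protein acts inside the cell. Hpx, which binds heme in plasma, was at 0.29 and 0.29, and Rbp4, the retinol carrier, at -0.38 and -0.31. For Alb the ratios were 0.02 and 0.05 by rank scaling, and 0.27 and 0.33 in deposited signals.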
